A study of Mus musculus with 6 samples.

Results

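The genes described here are 31 genes of the hypoxia-inducible factor (HIF) pathway, chosen by name from the 23329 gene symbols counted in each library. Of these, 8 encode the oxygen-sensing machinery and 23 are known HIF targets. RNA was sequenced from endothelial cells of the brains of adult C57BL/6 mice, 8 weeks of age, which were isolated by magnetic bead sorting (MACS) and lysed without culture. The GLUT1EC-/- group carried an endothelial-cell-specific knockout of Slc2a1, the gene of the glucose carrier GLUT1, and the WT group were littermates. Each group had 3 libraries, each from its own animal number. The promoter that drove the deletion and the exons removed are not given in the sources used here. Library totals ran from 31874662 to 39424384 counts. The sum of 10 endothelial markers was 17474 to 18366 CPM (counts scaled to the size of the library) in WT and 16753 to 20056 CPM in GLUT1EC-/-, so the labelled cell type was abundant in every library. Markers of other cells were also present. Among these the 8 choroid plexus markers had the largest sum, 3656 to 6451 CPM in WT and 2933 to 5464 CPM in GLUT1EC-/- (0 of 8 called by edgeR), mostly from Ttr. Those of microglia summed to 494 to 586 CPM in WT and to 767 to 1591 CPM in GLUT1EC-/- (3 of 10 called higher by edgeR). The part of these other cells in the values below was not tested. The library GLUT1EC-/- 2 stood apart, with a scaling factor of 0.884 against 1.01 to 1.05 for the other 5 libraries, and a mean correlation of 0.971 with its own group across genes against 0.978 to 0.993. Values without this library are given beside the results that moved most.

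HIF is a pair of proteins, an oxygen-regulated alpha subunit (HIF-1 alpha from Hif1a, or HIF-2 alpha from Epas1) and the constant partner ARNT. When oxygen is plentiful, prolyl hydroxylases of the EGLN family mark the alpha subunit, the VHL protein binds the mark and the subunit is degraded. A further hydroxylase, encoded by Hif1an, blocks the recruitment of coactivators. In low oxygen the alpha subunit is spared and induces genes for vessel growth, anaerobic metabolism and collagen modification. Much of this control acts on the protein and cannot be read from transcript counts. HIF-2 alpha is known for its high expression in endothelium, and Slc2a1 itself is a classical HIF target.

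Slc2a1, the targeted gene, was looked at first. It was at 3984, 4479 and 4172 CPM in WT, against 3735, 5414 and 3893 CPM under the GLUT1EC-/- label. The groups overlapped, and the fold change was 1.03 with a 95% interval from 0.780 to 1.37 (adjusted p = 0.921 by edgeR). The gene lies on the plus strand of chr4:119108711-119137983 (GRCm38) with 10 exons in its longest transcript, and counts are given per gene, not per exon. The count did not separate the labelled groups. Because the exons removed are not given, a count per gene could not decide whether the deletion was present. The directions below are those between libraries as labelled.

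No HIF gene passed the test between the groups, and the values lay on both sides of 0. Of the 31 genes, 30 had enough counts to test, and 0 of these 30 passed an adjusted p of 0.05 (edgeR quasi-likelihood test), while 1.31% of all 14838 tested genes did (0.863% higher and 0.445% lower). At an unadjusted p under 0.05 there were 5 of 30, against 14.5% of all genes. DESeq2 called 1 of the 30, the collagen cross-linking gene Loxl2, where it called 5.92% of all genes, and limma-voom called 0, where it called 0.997%. The 2 groups did not overlap for 6 of the 30 genes, 3 higher and 3 lower, which is 20% of them, against 22.9% among all genes (11.7% higher and 11.2% lower). The median log2 fold change was 0.02 over the 30 genes and 0.01 over all tested genes. By value 15 of the 30 were higher and 15 lower, and 51.5% of all genes were higher. Without GLUT1EC-/- 3 also 0 of the 30 passed in edgeR, where 1.88% of all genes did. In bulk samples fewer cells of a type and less RNA per cell cannot be told apart.

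The intervals of the fold changes show what these libraries could resolve. For 24 of the 30 genes the 95% interval of the fold change lay inside a 2-fold change in either direction, and for 12 it lay inside 1.5-fold. These intervals are not adjusted for the number of genes. The genes whose interval crossed a 2-fold change were Ak4, Lox, Loxl2, P4ha2, Fam162a and Ankrd37.

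**Figure D1:**
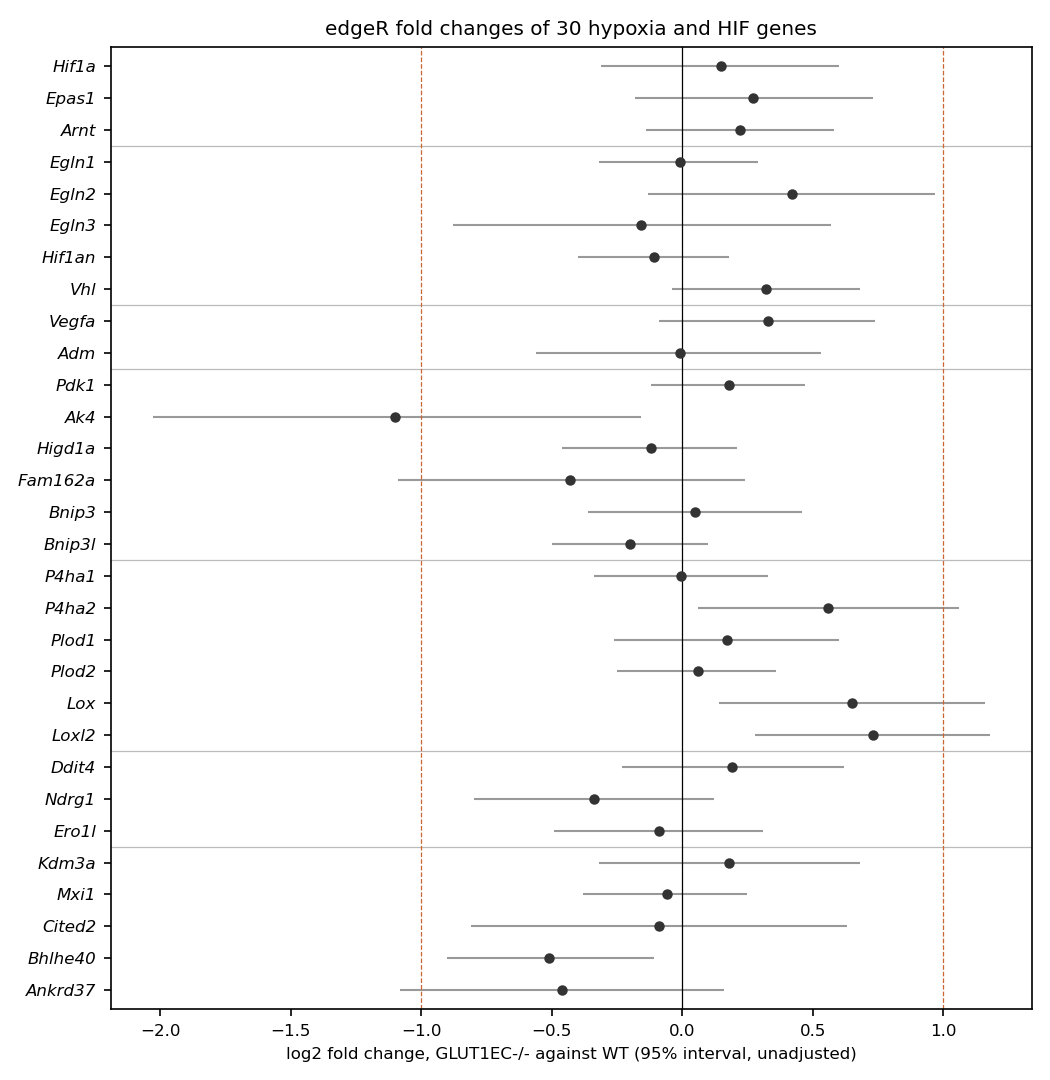
Log2 fold change of each of the 30 tested HIF genes between GLUT1EC-/- and WT (x axis, points, with unadjusted 95% intervals), grouped by role with grey lines. The dashed lines mark 2-fold changes, and 24 of the 30 intervals lie between them, while Ak4 extends furthest to the left and the Loxl2 point lies furthest to the right.

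HIF binds short motifs in the promoters and enhancers of its targets, so the promoter windows were searched for the core of the hypoxia response element. The letters searched were ACGTG and GCGTG on both strands, in the 250 bases before each RefSeq gene start (GRCm38.p6), with overlapping matches counted as 1 site. Of the 31 genes, 24 had a window in the table, and 22 of these 24 (91.7%) held at least 1 site. Among 10430 tested genes with a window the share was 59.4%, and among all 27025 genes with a window it was 41.5%. Counted by window, 79.4% of the 34 member windows held a site, against 38.6% of all 32851 windows. Windows with 3 or more sites were found for 7 of the 24 genes, against 9.68% of the tested genes. The member windows had a median GC content of 63.0%, against 59.2% for the tested genes, and the motif contains CG. ACGTG also lies within CACGTG, the E-box bound by other factors such as BHLHE40, and CACGTG occurred in 4 of the 34 member windows and in 6.02% of all windows. The 2 genes without a match were Hif1an and Vhl, both of the machinery, so each target with a window held a match. Epas1, Bnip3l, Plod2, Lox, Loxl2, Ndrg1 and Bhlhe40 had no window and were not searched. A match is a description of letters and not a site shown to be bound.

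The windows below belong to the genes with the largest differences among those with an entry, Ak4 and P4ha2, to targets rich in sites, Fam162a, Bnip3 and Ankrd37, and to Hif3a, the pathway gene outside the list that was called. Each is written 5′ to 3′ on the strand of its gene and ends at the base before the gene start, with the matches in capitals. P4ha2 lies on the plus strand (chr11:54100674-54100923), Ak4 on the plus strand (chr4:101419039-101419288), Fam162a on the minus strand (chr16:36071562-36071811), Bnip3 on the minus strand (chr7:138909507-138909756), Ankrd37 on the minus strand (chr8:45999851-46000100) and Hif3a on the minus strand (chr7:17062428-17062677).
P4ha2: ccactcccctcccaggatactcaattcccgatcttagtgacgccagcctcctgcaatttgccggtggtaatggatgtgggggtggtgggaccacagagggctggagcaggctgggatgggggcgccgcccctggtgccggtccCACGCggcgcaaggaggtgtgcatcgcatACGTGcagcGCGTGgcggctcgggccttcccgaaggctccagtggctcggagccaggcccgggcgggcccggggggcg
Ak4: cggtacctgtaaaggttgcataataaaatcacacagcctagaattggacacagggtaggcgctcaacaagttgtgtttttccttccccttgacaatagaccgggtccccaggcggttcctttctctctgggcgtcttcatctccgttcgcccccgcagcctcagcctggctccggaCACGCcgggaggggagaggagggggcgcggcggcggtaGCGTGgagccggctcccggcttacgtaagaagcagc
Fam162a: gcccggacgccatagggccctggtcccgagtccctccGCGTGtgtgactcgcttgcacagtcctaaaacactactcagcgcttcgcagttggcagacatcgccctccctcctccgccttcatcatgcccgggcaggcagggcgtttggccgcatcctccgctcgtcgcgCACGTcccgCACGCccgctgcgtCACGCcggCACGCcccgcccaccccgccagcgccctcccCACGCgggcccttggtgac
Bnip3: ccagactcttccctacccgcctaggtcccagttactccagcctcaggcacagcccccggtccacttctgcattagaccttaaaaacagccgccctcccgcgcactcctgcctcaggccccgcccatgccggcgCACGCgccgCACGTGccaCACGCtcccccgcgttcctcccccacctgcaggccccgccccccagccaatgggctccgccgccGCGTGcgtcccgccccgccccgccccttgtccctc
Ankrd37: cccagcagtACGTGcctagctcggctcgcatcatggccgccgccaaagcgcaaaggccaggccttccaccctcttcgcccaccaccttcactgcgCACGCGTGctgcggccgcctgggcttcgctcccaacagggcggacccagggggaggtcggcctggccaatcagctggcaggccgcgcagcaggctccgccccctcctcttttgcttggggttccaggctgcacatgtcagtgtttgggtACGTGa
Hif3a: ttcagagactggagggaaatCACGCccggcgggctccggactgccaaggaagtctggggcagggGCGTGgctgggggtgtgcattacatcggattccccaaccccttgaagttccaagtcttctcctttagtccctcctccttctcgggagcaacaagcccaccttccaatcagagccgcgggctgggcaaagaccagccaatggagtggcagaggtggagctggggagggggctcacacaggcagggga

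In these windows Fam162a had 6 sites, Bnip3 had 4, P4ha2 and Ankrd37 had 3 each, and Ak4 and Hif3a had 2 each. The nearest site began 6 bases before the start in Ankrd37 and 186 bases before it in Hif3a. The starts are those of RefSeq, and except for Hif3a they lie inside the gene as GENCODE M21 places it, far inside for P4ha2 and for Ankrd37 (chr8:45996902-46005707). The Bnip3 window holds 1 CACGTG, within its second match from the left.

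Levels were compared between genes as CPM divided by exon length in kilobases (RPKM), with exon lengths from GENCODE M21. Epas1 was the most abundant of the 31 genes, at 854 RPKM in WT (816 to 876), which was 30.9 times the 27.6 RPKM of Hif1a. Bhlhe40 (259.8 RPKM), Ddit4 (161 RPKM) and Ndrg1 (156 RPKM) followed, then Adm (87.4 RPKM) and Cited2 (71.7 RPKM). At the low end stood Loxl2 (1.22 RPKM), Egln3 (0.55 RPKM) and Car9 (0.0294 RPKM). Of the 30 pairs of neighbours in this order, 19 had overlapping WT ranges, for example Ddit4 with Ndrg1 and Hif1a with Egln2. The step from Epas1 to Bhlhe40 was not among these.

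**Figure D2:**
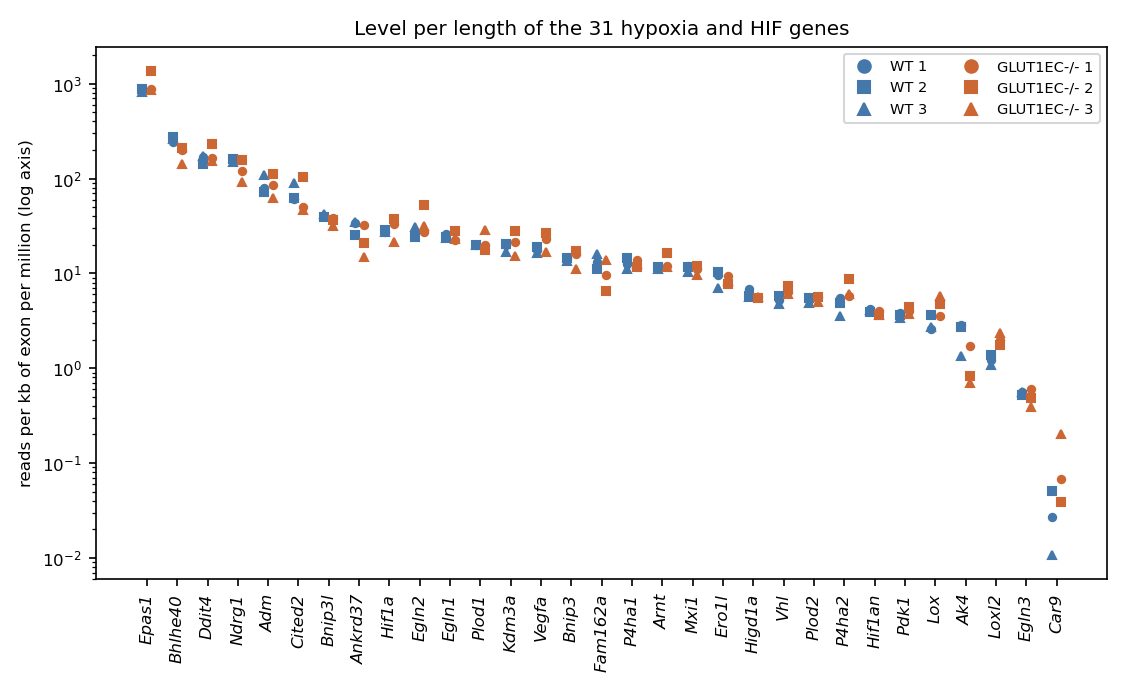
Level of each of the 31 HIF genes as RPKM (y axis, log scale), ordered by the WT mean, with 1 point per library. Epas1 stands at the top in every library and Car9 at the bottom, where GLUT1EC-/- 3 lies highest with 17 counts.

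Among the HIF subunits, Epas1 and Arnt stood out in GLUT1EC-/- 2 alone, while Hif1a varied among all GLUT1EC-/- libraries. Epas1 (chr17:86753700-86833410, plus strand, GRCm38) was at 4895, 4865 and 4564 CPM in WT and at 4957, 7579 and 4772 CPM in GLUT1EC-/- 1 to 3. GLUT1EC-/- 2 was far above the other 5 libraries, and the log2 fold change was 0.27 (SE 0.20, adjusted p = 0.571 by edgeR), or 0.02 without that library. Arnt, the shared partner, was at 90.5, 94.6 and 89.2 CPM in WT and at 95.4, 130.5 and 93.5 CPM in GLUT1EC-/-, with GLUT1EC-/- 2 again the highest (log2 fold change 0.22, adjusted p = 0.565 by edgeR, and 0.04 without it). Hif1a was at 159.6, 168 and 161 CPM in WT and at 195, 219 and 127 CPM in GLUT1EC-/-. Its GLUT1EC-/- libraries lay on both sides of the narrow WT range, with a log2 fold change of 0.15 (SE 0.20, adjusted p = 0.765 by edgeR), or -0.02 without GLUT1EC-/- 2. The Hif1a exons share positions with the predicted gene Gm49321 on the same strand, which leaves its count uncertain.

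No prolyl hydroxylase, the enzymes that sense oxygen, passed the test. Egln1, the main hydroxylase of HIF-1 alpha, was at 93.3, 87.5 and 85.7 CPM in WT and at 80.4, 101 and 82.8 CPM in GLUT1EC-/-. The groups overlapped, and the interval of the fold change ran from 0.80 to 1.23, with a log2 fold change of -0.01, or -0.13 without GLUT1EC-/- 2. Egln2 was at 77.4, 68.4 and 86.2 CPM in WT and at 76.8, 146 and 87.6 CPM in GLUT1EC-/-. Its log2 fold change of 0.42 (SE 0.24, adjusted p = 0.473 by edgeR) was 0.08 without GLUT1EC-/- 2. Egln2 exons overlap Cyp2t4 on the other strand, and the strand setting of the counting is not given in the sources used here. Egln3, a HIF-induced feedback hydroxylase, was scarce, at 1.49, 1.4 and 1.5 CPM in WT and at 1.62, 1.28 and 1.03 CPM in GLUT1EC-/-, and its groups overlapped.

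Hif1an, the asparaginyl hydroxylase, was at 27.7, 25.6 and 27.3 CPM in WT and at 26.6, 23.8 and 24.3 CPM in GLUT1EC-/- (log2 fold change -0.11, SE 0.13, adjusted p = 0.73 by edgeR). Its groups overlapped. Vhl, the substrate receptor of the ubiquitin ligase, was the machinery gene whose groups did not overlap. It was at 15.8, 17.5 and 14.1 CPM in WT and at 19.3, 22.0 and 18.0 CPM in GLUT1EC-/-. All 3 GLUT1EC-/- libraries lay above all WT libraries, by a log2 fold change of 0.32 (SE 0.16) that did not pass (adjusted p = 0.407 by edgeR).

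Most machinery genes were highest in 1 library. GLUT1EC-/- 2 held the highest value of 6 of the 8 machinery genes and of 15 of the 30 tested HIF genes, and it also held the highest value of 33.2% of all tested genes. The median machinery gene lay 0.46 above the WT mean on the log2 scale in GLUT1EC-/- 2, and at 0.06 and -0.05 in GLUT1EC-/- 1 and 3. Over the 22 tested targets the 3 medians were 0.05, 0.10 and -0.10. The median log2 fold change of the machinery was 0.18 with all libraries, -0.0009 without GLUT1EC-/- 2 and 0.33 without GLUT1EC-/- 3. GLUT1EC-/- 3 held the lowest value of 12 of the 30 tested HIF genes, 2 of them machinery, against 15.6% of all tested genes.

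**Figure D3:**
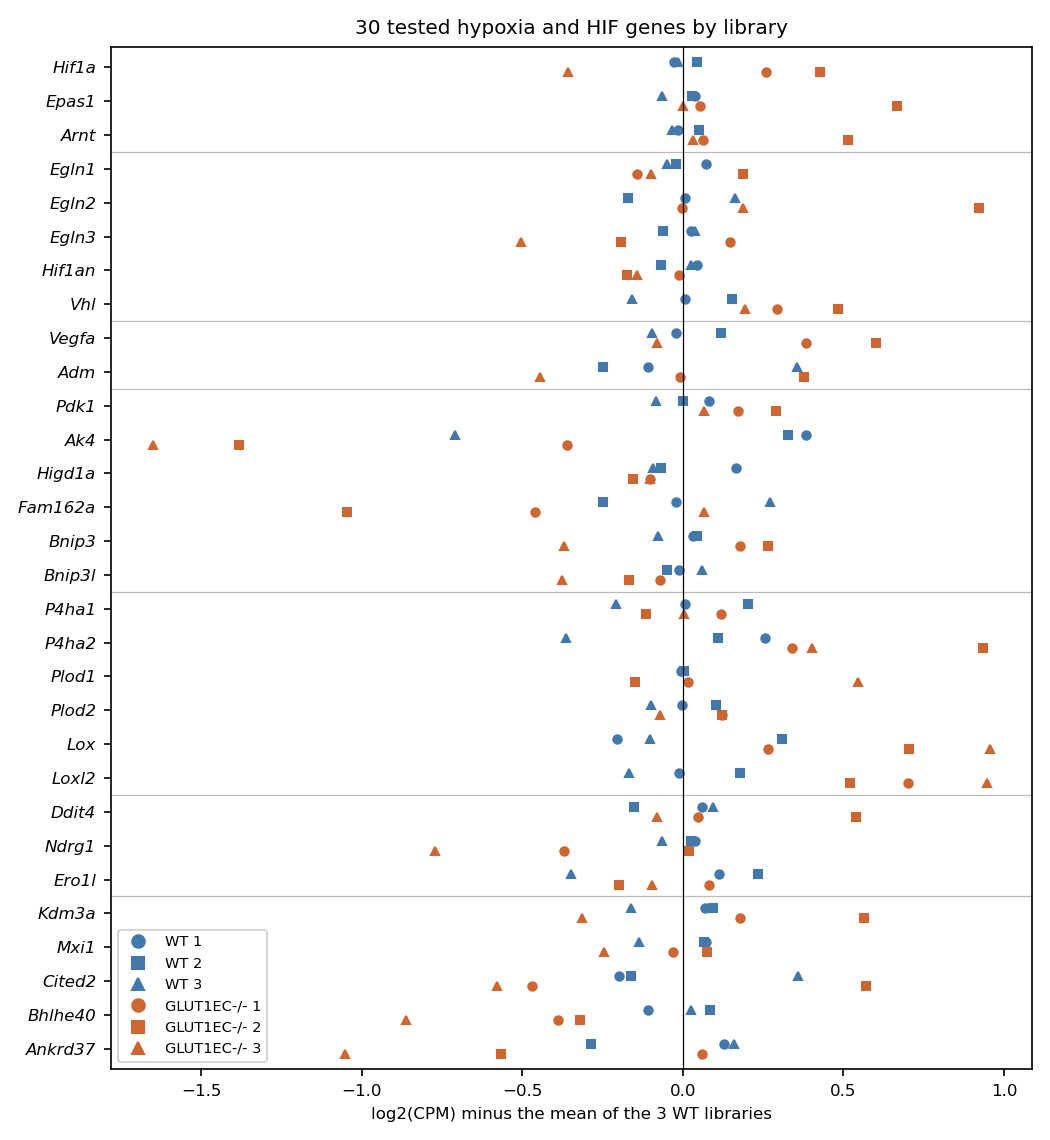
Each of the 30 tested HIF genes by library, as log2(CPM) minus the mean of the 3 WT libraries (x axis), with WT in blue and GLUT1EC-/- in orange and grey lines between roles. The orange squares (GLUT1EC-/- 2) lie to the right of the other points for most machinery genes at the top, and the WT points cluster more tightly than the GLUT1EC-/- points.

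The secreted vascular peptides among the targets overlapped between the groups. Vegfa, the principal vascular growth factor that HIF induces, was at 74.8, 82.3 and 70.9 CPM in WT and at 98.9, 115 and 71.7 CPM in GLUT1EC-/-. It was higher in 2 of the 3 GLUT1EC-/- libraries, and GLUT1EC-/- 3 lay within the WT range (log2 fold change 0.33, SE 0.18, adjusted p = 0.462 by edgeR, and 0.16 without GLUT1EC-/- 2). Adm, which encodes the vasodilator peptide adrenomedullin, was at 129, 117 and 178 CPM in WT and at 138, 180.5 and 102 CPM in GLUT1EC-/-. Its log2 fold change was -0.01 with an interval of the fold from 0.679 to 1.45, and -0.24 without GLUT1EC-/- 2.

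The targets of metabolism and mitochondria held the largest difference by value, in Ak4, a mitochondrial adenylate kinase. Ak4 (chr4:101419277-101466995, plus strand) was at 13.2, 12.7 and 6.18 CPM in WT and at 7.88, 3.88 and 3.22 CPM in GLUT1EC-/-. WT 3 lay below GLUT1EC-/- 1, so the groups overlapped. The log2 fold change of -1.10 (SE 0.41) did not pass (adjusted p = 0.265 by edgeR). As a ratio of mean CPM it was -0.72 among animals numbered in the 200s (WT 1, WT 2 and GLUT1EC-/- 1). It was -0.80 among those in the 500s (WT 3, GLUT1EC-/- 2 and GLUT1EC-/- 3). Each such ratio, here and for the genes below, rests on a single library in 1 of the groups.

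Bnip3l and Higd1a were lower in every GLUT1EC-/- library than in any WT library, by small amounts. Bnip3l, a mitophagy receptor also needed for the clearance of mitochondria in red cell precursors, was at 156, 152 and 164 CPM in WT and at 149.6, 139.9 and 121 CPM in GLUT1EC-/- (log2 fold change -0.20, SE 0.13, adjusted p = 0.524 by edgeR). The summed erythroid markers were 853, 762 and 1040.5 CPM in WT, against 1068, 104 and 345 CPM in GLUT1EC-/-, with 7 of the 8 listed genes found and 0 of 4 tested ones called. Hba-a1 and Hba-a2 have identical counts in every library, and the sum includes both. The part of red cell RNA in the Bnip3l values was not tested. Higd1a, a small protein of the respiratory chain, was at 20.7, 17.6 and 17.3 CPM in WT and at 17.2, 16.6 and 17.2 CPM in GLUT1EC-/-. The closest WT and GLUT1EC-/- libraries were nearly equal, and the log2 fold change was -0.12 (SE 0.14, adjusted p = 0.726 by edgeR).

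The other genes of this role overlapped between the groups. Pdk1, which keeps pyruvate out of mitochondria, had means of 28.0 and 31.7 CPM in WT and GLUT1EC-/-. Bnip3, the paralog of Bnip3l, had means of 32.2 and 33.3 CPM. Fam162a, a mitochondrial protein with exons overlapping Wdr5b on the other strand, had means of 11.5 and 8.55 CPM and a log2 fold change of -0.43 (adjusted p = 0.547 by edgeR), or -0.20 without GLUT1EC-/- 2. Car9, the carbonic anhydrase used as a hypoxia marker in tumours, was almost absent, with 2, 4 and 1 counts in the WT libraries and 6, 3 and 17 counts in GLUT1EC-/- 1 to 3. It was left out of the test by the filter on low counts, and without that filter its log2 fold change was 1.77 (SE 0.91, adjusted p = 0.47 by edgeR).

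Among the collagen and matrix modifying enzymes most values were higher. Of 6 tested, 0 were called by edgeR and 3 had an unadjusted p under 0.05, where 14.5% of all genes did. Of the same 6, 5 were higher by value (51.5% of all genes were), and the median log2 fold change was 0.37. Loxl2 (chr14:69609068-69695834, plus strand), a lysyl oxidase that cross-links collagen, was at 6.53, 7.45 and 5.86 CPM in WT and at 10.7, 9.44 and 12.7 CPM in GLUT1EC-/-. The groups did not overlap, and the log2 fold change of 0.73 (SE 0.20) had the lowest adjusted p of all HIF genes (adjusted p = 0.137 by edgeR). Its log2 fold change was 0.62 among the 200s and 0.92 among the 500s. Without GLUT1EC-/- 2 it was 0.82 and Loxl2 passed (adjusted p = 0.0239 by edgeR), in a fit where 5.73% of all genes passed, and it also passed in DESeq2 (adjusted p = 0.0153).

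Lox, the founding lysyl oxidase, was at 12.2, 17.4 and 13.1 CPM in WT and at 16.9, 22.9 and 27.3 CPM in GLUT1EC-/-. Only WT 2 and GLUT1EC-/- 1 overlapped (log2 fold change 0.65, SE 0.22, adjusted p = 0.227 by edgeR). P4ha2, a catalytic subunit of collagen prolyl hydroxylase, was at 34.0, 30.7 and 22.1 CPM in WT and at 36.0, 54.4 and 37.6 CPM in GLUT1EC-/-. Its groups did not overlap, though WT 1 and GLUT1EC-/- 1 were close. The log2 fold change was 0.56 (SE 0.22, adjusted p = 0.286 by edgeR), or 0.34 without GLUT1EC-/- 2, and it was 0.15 among the 200s and 1.06 among the 500s. P4ha1, the paralogous subunit, had means of 52.5 and 52.4 CPM. The lysyl hydroxylases Plod1 and Plod2 had means of 134 and 150.4 CPM and of 28.0 and 29.1 CPM, and Plod1 was highest in GLUT1EC-/- 3, at 195 CPM (log2 fold change 0.17, and 0.30 without GLUT1EC-/- 2).

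Fibroblast markers were also higher by value. The sum of 10 fibroblast markers was 578 to 1081 CPM in WT, against 1249 to 2039 CPM in GLUT1EC-/-, with 0 markers absent. Apod made up much of this sum, at 205, 258 and 562 CPM in WT and at 772, 1673 and 579 CPM in GLUT1EC-/-. Without Apod the groups would overlap in the sum. The sum was highest in GLUT1EC-/- 2, where Apod was also highest. Dcn, Lum, Col1a1, Col1a2, Col3a1, Slc6a13 and Igf2 had their lowest GLUT1EC-/- value in that library, as did Loxl2 and Plod1. Pdgfra and Fmod had theirs in GLUT1EC-/- 1, as did Lox and P4ha2. By value 9 of the 10 fibroblast markers were higher. The 1 called higher was Dcn, a small matrix proteoglycan (19.5 ± 1.16 against 79.8 ± 20.3 CPM, SD, n = 3 each, log2 fold change 2.03, adjusted p = 0.00997 by edgeR). Pericyte markers summed to 1141 to 1352 CPM in WT, against 1297 to 1650.0 CPM in GLUT1EC-/-, with 0 of 10 called. The part of these cells in the values of Lox, Loxl2 and P4ha2 was not tested.

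**Figure D4:**
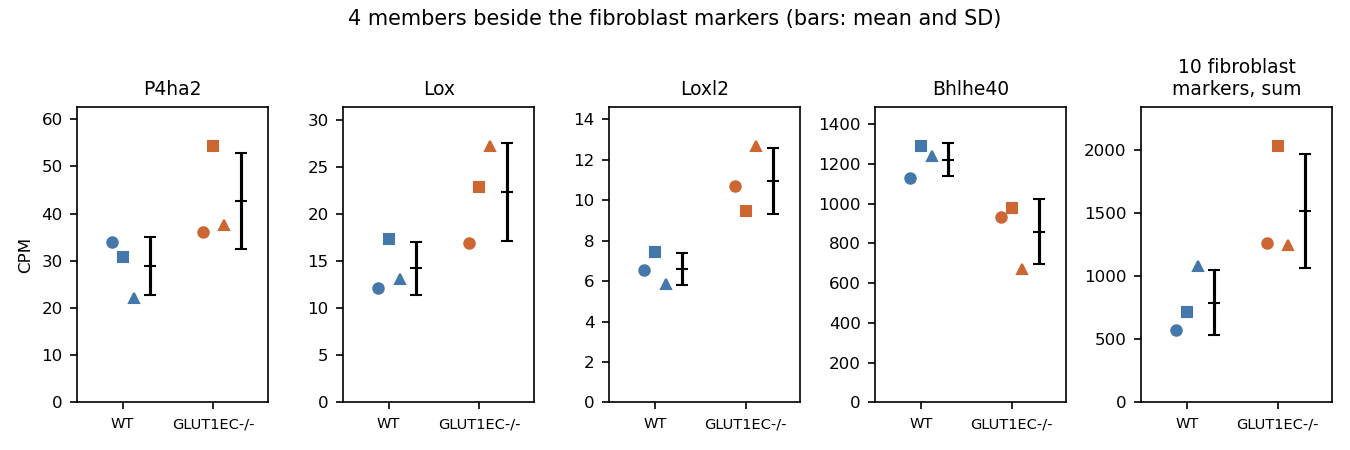
P4ha2, Lox, Loxl2 and Bhlhe40 beside the sum of 10 fibroblast markers, in CPM (y axes from 0), with 1 point per library and the mean and SD of each group to its right. Loxl2 and P4ha2 lie above WT in all 3 GLUT1EC-/- libraries, Bhlhe40 lies below, and the fibroblast sum is 1249 CPM or more in GLUT1EC-/- and 1081 CPM or less in WT. The gap between the groups in this sum rests on Apod.

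The stress and folding targets gave no call. Ddit4, an inhibitor of mTORC1 signalling, had means of 282 ± 25.1 and 322 ± 76.4 CPM (SD, n = 3 each), with a log2 fold change of 0.19, or -0.02 without GLUT1EC-/- 2. Ndrg1, a stress-induced gene known from myelin and epithelia, had means of 1029 ± 39.8 and 813 ± 221 CPM, with GLUT1EC-/- 2 inside the WT range and the other GLUT1EC-/- libraries below it. Its log2 fold change was -0.34 (SE 0.20, adjusted p = 0.486 by edgeR), and -0.56 without GLUT1EC-/- 2 (adjusted p = 0.0545 by edgeR). Summed oligodendrocyte markers were 368 to 443 CPM in WT, against 324 to 365 CPM in GLUT1EC-/-, and their part in the Ndrg1 values was not tested. Ero1l (now Ero1a), the oxidase that forms disulphide bonds in the endoplasmic reticulum, had means of 47.5 and 44.7 CPM.

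Of the targets that act on transcription and chromatin, Bhlhe40 was lower in all GLUT1EC-/- libraries. Bhlhe40 (chr6:108660629-108666925, plus strand), a basic helix-loop-helix repressor linked to the circadian clock, was at 1132, 1293 and 1242 CPM in WT and at 931, 977 and 671 CPM in GLUT1EC-/-. The groups did not overlap. The log2 fold change was -0.51 (SE 0.17), with an interval of the fold from 0.535 to 0.925, and it did not pass (adjusted p = 0.227 by edgeR). It was -0.38 among the 200s and -0.59 among the 500s, and -0.62 without GLUT1EC-/- 2 (adjusted p = 0.0552 by edgeR).

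Ankrd37, a compact HIF target of little-known function, was at 52.1, 39.1 and 53.2 CPM in WT and at 49.7, 32.2 and 23 CPM in GLUT1EC-/-. GLUT1EC-/- 1 lay within the WT range, the other GLUT1EC-/- libraries below it, and the log2 fold change was -0.46 (SE 0.27, adjusted p = 0.484 by edgeR). Ankrd37 exons overlap Lrp2bp and Ufsp2 on the other strand. Cited2, which competes with HIF for coactivators, had means of 176 ± 40.1 and 166 ± 79.3 CPM, with GLUT1EC-/- 2 at 257 CPM and the other GLUT1EC-/- libraries at 125 and 116 CPM. Its log2 fold change was -0.09 (adjusted p = 0.918 by edgeR), and -0.56 without GLUT1EC-/- 2 (adjusted p = 0.103 by edgeR). Kdm3a, a histone demethylase, and Mxi1, an antagonist of MYC whose exons overlap the predicted gene Gm10197 on the other strand, had log2 fold changes of 0.18 (adjusted p = 0.733 by edgeR) and -0.06 (adjusted p = 0.859 by edgeR), which were -0.06 and -0.14 without GLUT1EC-/- 2.

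The spread between libraries was wider in GLUT1EC-/-. The median coefficient of variation (SD over mean) of the 30 genes was 8.48% in WT and 22.8% in GLUT1EC-/-, and it was larger in GLUT1EC-/- for 26 of them. Over all tested genes the medians were 11.1% and 20.6%, and 73.1% of genes had the larger value in GLUT1EC-/-. Plod1 was the extreme, at 133 to 134 CPM in all WT libraries and 120.5 to 195 CPM in GLUT1EC-/-. Of the 30 genes, 22 had the same direction within the 200s and within the 500s as over all libraries. The overall value is made of the same libraries, so part of this agreement is built in. The share over all genes was not computed.

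Other genes of the pathway were followed in lists of 12 further machinery genes and 40 further targets, all of them tested. Of the machinery, 1 was called higher, 0 lower and 11 were not called. Of the targets, 2 were called higher, 1 lower and 37 were not called. The median log2 fold changes were 0.12 and -0.06. The 14 glycolysis and glucose genes had 0 calls in edgeR and 3 at an unadjusted p under 0.05 (21.4%, against 14.5% of all genes). Their median was -0.22, with 12 of them below 0, where all genes had a median of 0.01 and 51.5% above 0. Of 10 vascular targets 3 were called, and the groups did not overlap for 8 of the 10, 4 higher and 4 lower, where 1.31% of all genes were called and 22.9% did not overlap. They did not overlap for 5 of the 14 glycolysis and glucose genes (35.7%) and for 2 of the 16 remaining targets (12.5%). The lists were chosen with earlier results of these data known, which limits the comparison with all genes.

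The called machinery gene was Hif3a (chr7:17031507-17062427, minus strand), a HIF alpha subunit best known for inhibitory splice forms. It was at 2.91, 5.17 and 5.30 CPM in WT and at 24.0, 36.7 and 31.5 CPM in GLUT1EC-/-. It rose in all 3 GLUT1EC-/- libraries, by 2.78 on the log2 scale (SE 0.27, adjusted p = 0.0115 by edgeR), and by 2.57 among the 200s and 2.69 among the 500s. It also passed without any 1 of the GLUT1EC-/- libraries. Without WT 1, WT 2 or WT 3 it did not pass (adjusted p = 0.103, 0.0674 and 0.0695 by edgeR). In those fits 0, 1 and 5 of all tested genes passed. With any 1 library left out, the log2 fold change of Hif3a ran from 2.54 to 2.93. The next by size were the ubiquitin ligase genes Siah1a and Siah2, which target EGLN proteins, and Arnt2, with log2 fold changes of 0.44, -0.38 and 0.37 that did not pass (adjusted p = 0.624, 0.316 and 0.508 by edgeR). Siah1a was at 40.3 CPM in GLUT1EC-/- 2 against 15 to 19.3 CPM elsewhere, its log2 fold change without that library was -0.20, and its exons overlap Gm10638 on the other strand.

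Among the vascular targets, Angptl4, a secreted inhibitor of lipoprotein lipase, was at 17.7, 24.1 and 31.9 CPM in WT and at 48.3, 123 and 97.0 CPM in GLUT1EC-/-. It rose by 1.86 on the log2 scale (SE 0.35, adjusted p = 0.0494 by edgeR), a call that was lost without GLUT1EC-/- 2 (1.55, adjusted p = 0.0622 by edgeR), without GLUT1EC-/- 3 (adjusted p = 0.0576 by edgeR) and without any WT library (adjusted p = 0.146 to 0.269 by edgeR). Cxcl12, a chemokine that holds leukocytes at vessels, was at 1779, 1213 and 1218 CPM in WT and at 580.2, 547 and 563 CPM in GLUT1EC-/-. It fell by 1.32 on the log2 scale (SE 0.18, adjusted p = 0.0206 by edgeR). Without WT 1, WT 2, WT 3 or GLUT1EC-/- 1, Cxcl12 did not pass, with adjusted p of 0.0739 to 0.121 by edgeR. Those fits called 0, 1, 5 and 32 of all tested genes. With any 1 library left out the log2 fold changes ran from 1.55 to 2.16 for Angptl4 and from -1.41 to -1.12 for Cxcl12. With the animal number series as a term, Hif3a passed (adjusted p = 0.0381 by edgeR), while Angptl4 and Cxcl12 did not (adjusted p = 0.0911 and 0.0934 by edgeR). That fit called 14 of all tested genes. Angptl4 also missed the threshold with upper-quartile scaling, library size alone, a filter of 1 CPM and limma-voom (adjusted p = 0.0525 to 0.065).

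Angpt2, which loosens contacts between vessel cells, and Igfbp3, a binding protein of insulin-like growth factors, had log2 fold changes of 1.69 and 1.48 that did not pass (adjusted p = 0.118 and 0.0735 by edgeR). Both were highest in GLUT1EC-/- 2, at 130.1 and 848 CPM, and their groups did not overlap. Without that library the log2 fold changes were 1.10 and 1.05, and Igfbp3 then passed (adjusted p = 0.0156 by edgeR). Angpt2 passed without GLUT1EC-/- 3 (2.06, adjusted p = 0.013 by edgeR), Igfbp3 passed with no filter on low counts (adjusted p = 0.0498 by edgeR), and DESeq2 called both (adjusted p = 0.0016 and 0.000248). The pathway genes that were called thus lay outside the 31, and they went in both directions.

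**Figure D5:**
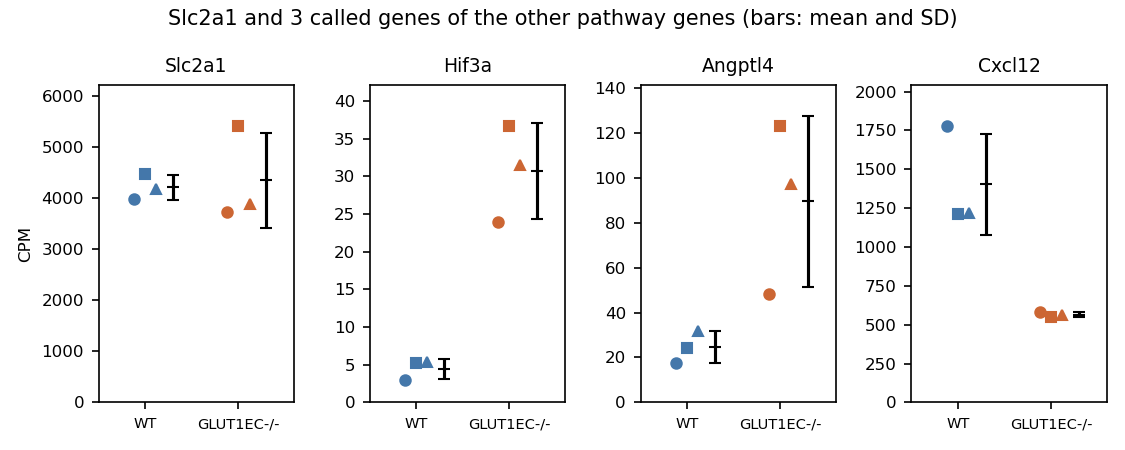
Slc2a1 and 3 called genes of the further pathway genes, in CPM (y axes from 0), with 1 point per library and the mean and SD of each group to its right. The groups overlap for Slc2a1, while Hif3a and Angptl4 lie higher and Cxcl12 lies lower in all 3 GLUT1EC-/- libraries.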

How the data were processed

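Libraries were stranded mRNA (TruSeq), read single-end, per the labels' protocols. The submitters' processing notes name STAR, featureCounts and GRCm38, and the authors deposited raw counts for each gene symbol. Versions, annotation and strand setting are not given in the sources used here. Genotype was the only term of edgeR 4.0.16's quasi-likelihood test (R 4.3.3, TMM, filterByExpr with minimum count 10 and minimum total 15, robust dispersion), fitted to 14838 genes in 6 libraries and adjusted by Benjamini-Hochberg at 0.05. The biological coefficient of variation was 23.2%. Standard errors were derived from each fold change and its F statistic (estimate over root F). P-values set the difference between the groups against the spread between these 3 animals per group, moderated by the spread over all tested genes.

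Alternatives were RLE, upper-quartile and library-size scaling, DESeq2 1.42.0, limma-voom (limma 3.58.1), non-robust dispersion, other filters, the animal number series (200s or 500s, whose meaning is not given) as a term, each library left out and a threshold of 0.1. The fit was checked on simulated counts. The genes and lists were chosen with earlier results of these data known. Values in every library are given for the machinery, for members whose groups do not overlap and for the 6 largest differences; of the further lists, called genes and the 4 largest differences with a mean of at least 1 CPM are named. All 31 genes were found and placed in GENCODE M21, 1 sharing exons with a coding gene on its strand and 4 on the other strand. Of the called further targets, 1 is counted but not reported here.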

Additional observations from a re-analysis of the deposited data

How the results depend on the processing

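Of 30 HIF genes under the 9 alternatives that kept all libraries, 265 gene results kept their direction and their side of the threshold, 1 newly passed and 4 changed sign. DESeq2 called 1 HIF gene (Loxl2), 879 genes in all and 8 of the further pathway genes, and with the number series as a term 14 genes and 1 further pathway gene passed. At an adjusted p of 0.1 the calls were 429. Leaving out 1 library gave 0 to 862 genes, 0 to 1 HIF genes and 0 to 9 further pathway genes, the highest without GLUT1EC-/- 2. The changed signs, with Slc2a1 added, were Slc2a1 at -0.00093 (upper-quartile scaling), -0.02 (library size alone) and -0.01 (number series), Bnip3 at -0.01 (library size alone), P4ha1 at 0.0038 (limma-voom) and 0.08 (number series), and Ero1l at 0.05 (number series). With 1 library left out the log2 fold changes ran from -0.15 to 0.14 for Slc2a1, -0.02 to 0.35 for Hif1a, -0.13 to 0.05 for Egln1, -0.24 to 0.18 for Adm, -0.08 to 0.22 for Bnip3, -0.10 to 0.10 for P4ha1, -0.06 to 0.30 for Plod1, -0.02 to 0.31 for Ddit4, -0.24 to 0.03 for Ero1l, -0.06 to 0.38 for Kdm3a, -0.14 to 0.02 for Mxi1, -0.56 to 0.12 for Cited2 and -0.20 to 0.68 for Siah1a. The other 19 HIF genes kept their sign under all of these alternatives. The cause was not tested. No paired analysis was possible because the labels give the groups no shared replicate numbers. Depth limited Car9, which had at most 17 counts in a library.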
